A study of Mus musculus with 9 samples.

Results

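The 10 genes described here carry iron into and through the developing red cell: Tfrc, Steap3 and Slc11a2 take it up, Slc25a37, Abcb10 and Abcb6 serve iron and porphyrin traffic at the mitochondrion, Fth1 and Ftl1 store it, Slc40a1 exports it, and Fam132b encodes the hormone erythroferrone. They were chosen by symbol from a table of 27999 rows, and all 10 had 1 row each and passed the filter on low counts. RNA was measured in G1E cells, mouse erythroid progenitors grown as 1 line without a working Gata1 gene, after infection with virus carrying a human GATA1 mutant, human wildtype GATA1 or the empty HMD vector (3 libraries each, 9 in all). All 3 groups were cultured in medium with stem cell factor and erythropoietin, and all lacked the mouse protein, so that each comparison is between transgenes in 1 mutant line. Neither the mutation, the promoter of the vector, the time after infection nor the share of infected cells is given in the sources used here.

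An erythroblast takes up iron bound to transferrin through the transferrin receptor, reduces it in the endosome and moves it across the endosomal membrane. Most of that iron goes to the mitochondrion, where the last enzyme of heme synthesis inserts it into protoporphyrin, and the surplus is stored in ferritin or leaves through ferroportin. Iron regulatory proteins bind hairpins in the untranslated regions of Tfrc, Slc11a2, Fth1, Ftl1 and Slc40a1 transcripts, and for the ferritins they act mainly on translation, which RNA counts do not measure. GATA1 is the transcription factor that switches on the erythroid program in these cells.

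Library totals ranged from 11364358 to 17289307 counts. In CPM (read counts of a gene relative to the TMM-scaled library size), human GATA1 stood at 638, 693 and 574 with the mutant and at 855, 787 and 919 with the wildtype, and it had 2 counts in 1 of the 3 empty vector libraries. Every mutant library thus held less transgene RNA than every wildtype library, and the part of this difference in the results was not tested. Summed markers of erythroid progenitors (6 genes) stood at 1554.5 to 1626 CPM with the mutant, 1345 to 1493 with the wildtype and 1418 to 1667 with the empty vector, but the levels of single markers ran in opposite orders across the groups. The receptor Kit averaged 602 CPM in mutant, 248 CPM in wildtype and 661 CPM in empty vector libraries, and Gata2 (286, 103 and 327 CPM) and Myb (69.2, 37.1 and 82.0 CPM) were likewise lowest with the wildtype. Klf1 averaged 339.6 CPM in mutant, 614.5 CPM in wildtype and 260.05 CPM in empty vector libraries, Epor was also highest with the wildtype (180.4, 314 and 153 CPM), and Tal1 had 118, 110.1 and 87.3 CPM. Markers of macrophages, which also express Slc40a1, summed to 2.49 to 3.07 CPM in mutant libraries, 1.999 to 2.55 with the wildtype and 2.83 to 3.35 with the empty vector, and 2 of these 5 genes had no count in any library. Markers of mast cells (5 genes, 2 without a count) summed to 10.2 to 13.6 CPM in mutant, 3.25 to 4.81 CPM in wildtype and 29.4 to 36.1 CPM in empty vector libraries. Most of this sum was Cpa3 (means of 11.7, 3.87 and 31.4 CPM in the same order of groups). Markers of megakaryocytes (4 genes, 1 without a count) summed to 32.8 to 37.8 CPM in mutant, 22.9 to 29.4 CPM in wildtype and 46.8 to 51.8 CPM in empty vector libraries. This sum followed Pf4 and Itga2b, while the means of Gp9 ran in the opposite order (6.60 ± 0.67, 7.29 ± 2.32 and 5.81 ± 0.81 CPM, SD, n = 3). Both sums ran opposite to most of the 10 genes across groups, and the part of all these markers in the results was not tested. Mutant replicates 1 and 2 were closer to each other than any other pair of 1 group: the chi-square per degree of freedom was 2.175 for that pair and 14.3 to 52.8 for the others. They still differed by more than counting noise and were kept as 2 libraries. The value is set against counting noise only, so it cannot show whether they came from separate cultures. In bulk RNA, fewer expressing cells and less RNA per cell cannot be told apart.

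**Figure D1:**
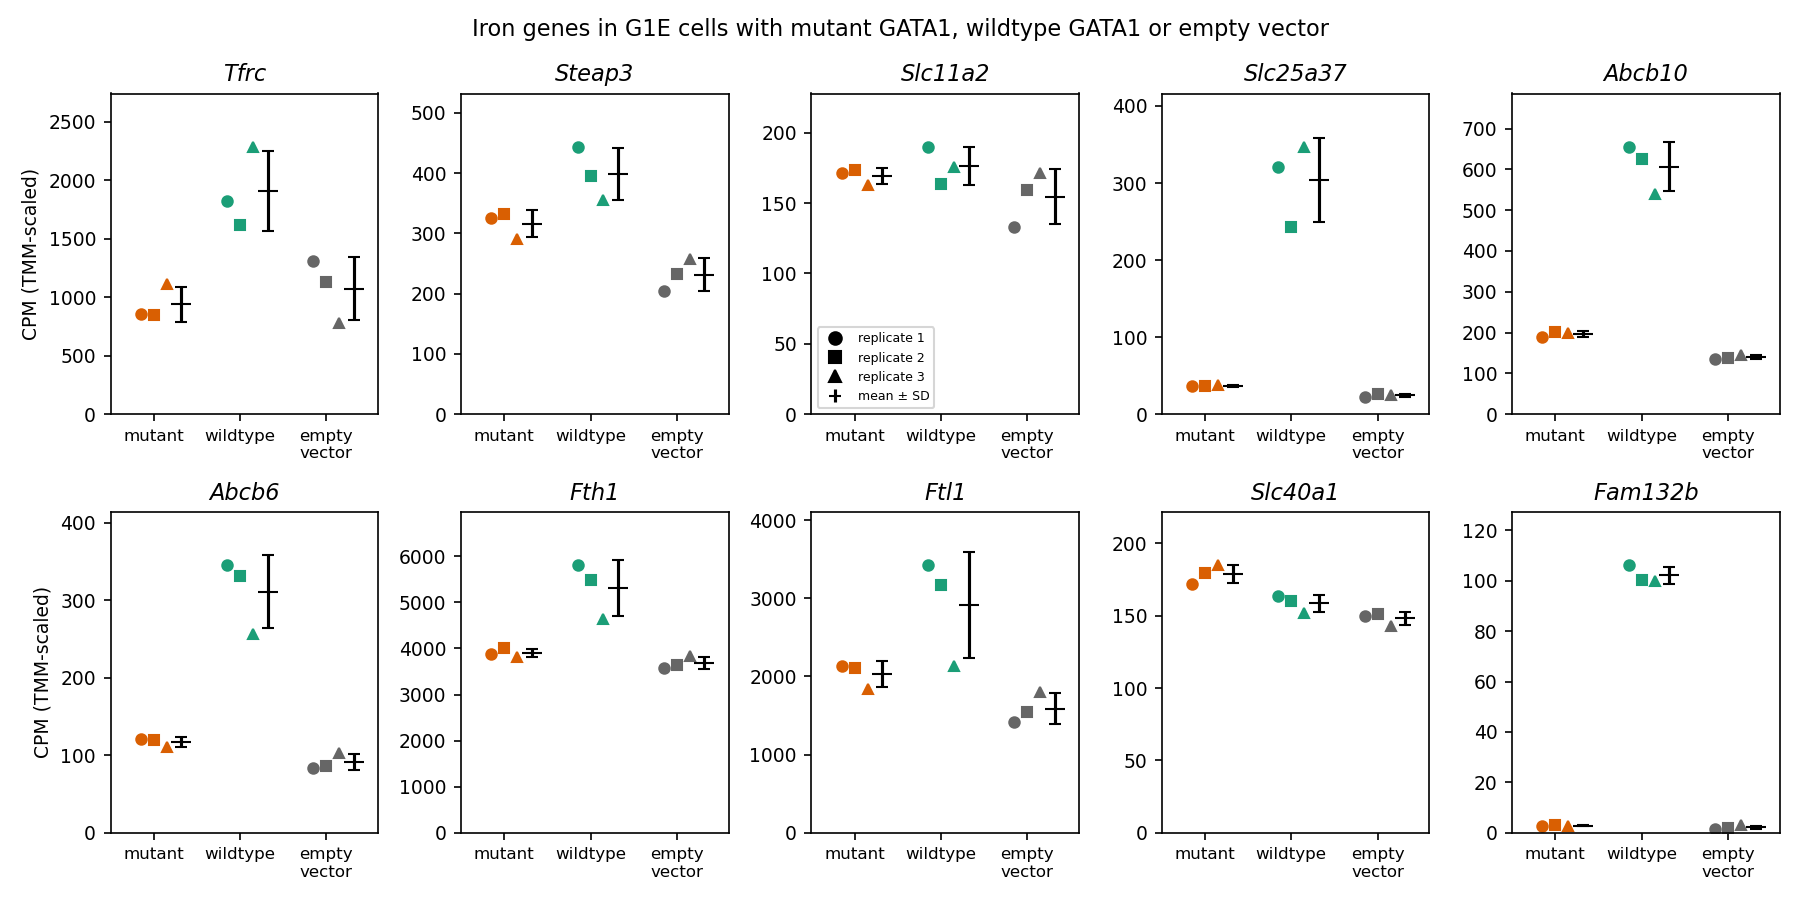
Level of each of the 10 genes in every library, in TMM-scaled CPM on a linear axis that starts at 0, with mutant, wildtype and empty vector libraries side by side and the mean with its SD as a bar. The 3 wildtype libraries stand clear of all others for Slc25a37 (242 to 347 CPM) and Fam132b (99.9 to 106 CPM), while Slc11a2 and Slc40a1 differ little between groups.

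With wildtype GATA1, 8 of the 10 genes rose against the empty vector and 0 fell. Over all 9978 tested genes, 11.4% were higher and 11.9% lower in the same test (edgeR's quasi-likelihood test, Benjamini-Hochberg adjusted p under 0.05). Slc11a2 and Slc40a1 were the 2 that did not pass; 0 of the 10 were lower at an unadjusted p under 0.05 or in DESeq2. For 9 of the 10 the wildtype libraries lay above the empty vector libraries without overlap, beside 32.6% of all genes without overlap in either direction. The median log2 fold change was 0.85 over the 10 genes and −0.04 over all tested genes. The mutant passed for 0 of the 10 against the empty vector, where 0.21% of all genes were higher and 0.0601% lower. In that comparison 5 of the 10 had an unadjusted p under 0.05, all of them higher. The share of all genes at that level was not counted, so these 5 have no background beside them. DESeq2 called 2 higher, Slc25a37 and Abcb10, beside 63 genes higher and 39 lower over all genes. For 6 of the 10 the mutant libraries lay above the empty vector libraries, beside 15% of all genes without overlap in either direction. Against the wildtype the mutant fell for 7 of the 10 genes, beside 12.7% of all genes lower, 13.2% higher and 25.9% in either direction. The mutant was higher for 0 of the 10 in edgeR, at an unadjusted p under 0.05 and in DESeq2. Mutant libraries lay below wildtype libraries for 7 of the 10 and above them for 1, beside 44.2% of all genes without overlap in either direction. With replicate number as a block in these 6 libraries, 8 of the 10 genes were lower, and over all genes 2323 were higher and 2417 lower. Without the block, 1437 were higher and 1412 lower in the same 6 libraries, against 1313 and 1267 in the fit of all libraries. The labels state no such pairing, and this block was added after the values were seen. On library totals without TMM factors, which moved the median of all genes by 0.11 for mutant against wildtype (log2), the split was 1823 higher and 918 lower; for wildtype against empty vector it was 901 higher and 1503 lower, against 1137 and 1186 with TMM factors.

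**Figure D2:**
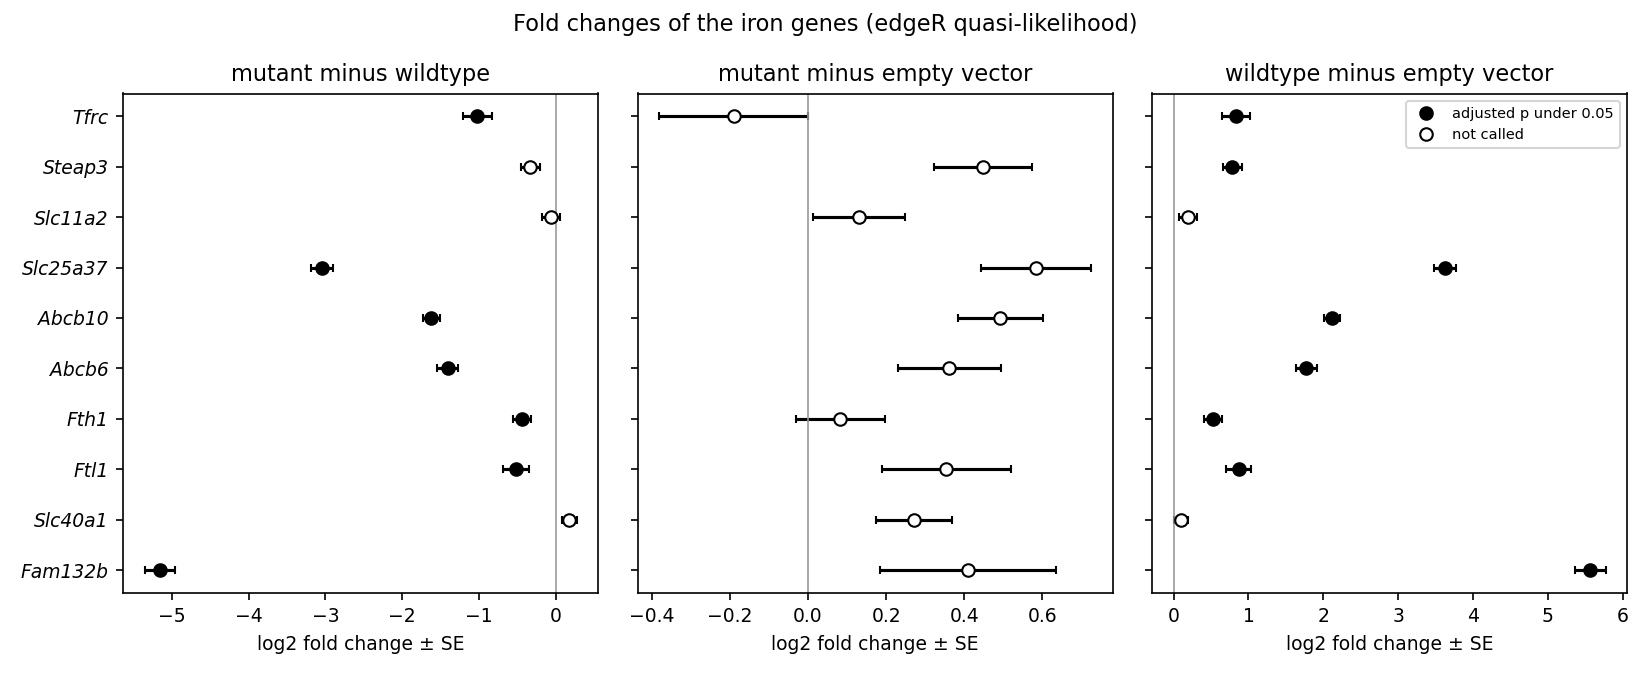
Log2 fold change with its approximate SE for each gene in the 3 comparisons, with filled points for an adjusted p under 0.05 and open points otherwise; the horizontal scale differs between panels. Filled points number 7 for mutant against wildtype, 0 for mutant against empty vector and 8 for wildtype against empty vector, and Fam132b and Slc25a37 lie farthest from 0 in both panels that involve the wildtype.

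GATA factors bind the letters AGATAA or AGATAG and their variants TGATAA or TGATAG, and KLF1, an erythroid factor with which GATA1 works, binds CACCC sites, searched here as CCACACCC or CCGCACCC. Both strands were searched in the 250 bases before each transcript start that RefSeq (GRCm38.p6) lists for these genes, and 12 such windows were found for 7 of the 10 genes; Slc11a2, Slc25a37 and Slc40a1 were not among them. A GATA motif stood in 1 of the 12 windows (8.33%), against 26.5% of 32851 windows genome-wide, and a CACCC motif in 1 (8.33%), against 4.68%. Shown are the Steap3 window with the single GATA match, in capitals and on the opposite strand, and the windows of Abcb10 and Fam132b, both of which rose with wildtype GATA1 and held no GATA match. The CACCC match lay in a Tfrc window. A match is a description of letters, and a missing match says only that these letters are not within this window.
Steap3 (chr1:120271081-120271330, minus strand): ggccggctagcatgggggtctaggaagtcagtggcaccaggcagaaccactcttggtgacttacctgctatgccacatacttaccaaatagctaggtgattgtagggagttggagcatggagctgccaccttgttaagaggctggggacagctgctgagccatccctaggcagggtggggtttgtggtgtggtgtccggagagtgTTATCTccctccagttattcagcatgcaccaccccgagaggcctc
Abcb10 (chr8:123983123-123983372, minus strand): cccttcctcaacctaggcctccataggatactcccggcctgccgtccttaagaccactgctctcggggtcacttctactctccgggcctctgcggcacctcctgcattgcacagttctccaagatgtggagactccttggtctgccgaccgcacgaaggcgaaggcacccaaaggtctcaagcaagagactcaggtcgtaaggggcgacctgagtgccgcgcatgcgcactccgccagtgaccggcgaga
Fam132b (chr1:91366180-91366429, plus strand): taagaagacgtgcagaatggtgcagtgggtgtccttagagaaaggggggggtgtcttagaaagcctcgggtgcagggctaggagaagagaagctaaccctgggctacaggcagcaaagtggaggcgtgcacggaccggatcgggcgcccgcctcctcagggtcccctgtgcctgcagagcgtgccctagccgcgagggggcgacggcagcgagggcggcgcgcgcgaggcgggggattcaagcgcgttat

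Tfrc, the transferrin receptor (GRCm38 chromosome 16, 32608920 to 32632794), rose with wildtype GATA1 and did not change detectably with the mutant. It stood at 861, 848 and 1111 CPM in mutant libraries (replicates 1 to 3), at 1827, 1619 and 2286 CPM in wildtype libraries and at 1309, 1132 and 778 CPM in empty vector libraries. Every wildtype library lay above every other library, while mutant and empty vector libraries overlapped. The wildtype was 1.78-fold higher than the empty vector (log2 fold change 0.83 ± 0.19, SE; adjusted p 0.00716), and the mutant was at 49.2% of the wildtype (−1.02 ± 0.19, adjusted p 0.00212). Mutant against empty vector gave −0.19 ± 0.19 (adjusted p 0.665). Tfrc was the only 1 of the 10 genes with a negative estimate in that comparison, and the mutant mean was 940 ± 148 CPM against 1073 ± 270 CPM in empty vector libraries (SD, n = 3).

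Steap3, the endosomal ferrireductase that prepares iron from transferrin for transport (chromosome 1, 120190757 to 120272705), was the uptake gene whose mutant libraries lay between the other groups without overlap. It had 325, 332 and 291 CPM in mutant libraries, 443, 395 and 356 CPM in wildtype libraries and 204, 232 and 258 CPM in empty vector libraries. The 3 groups did not overlap and lay in the order wildtype, mutant, empty vector. The wildtype rose 1.72-fold (0.78 ± 0.13, adjusted p 0.000602). The mutant had 0.45 ± 0.13 against the empty vector, with an adjusted p of 0.236 that became 0.0343 without empty vector replicate 3, and −0.33 ± 0.13 against the wildtype, with an adjusted p of 0.0659. The last difference passed once replicate number was a block in the 6 mutant and wildtype libraries (adjusted p 0.00272), a pairing that the labels do not state. It also passed in DESeq2 (0.0423), without wildtype replicate 3 (0.0272) and without empty vector replicates 1 or 3 (0.0479 and 0.0487).

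Slc11a2, the divalent metal transporter DMT1 that carries iron out of the endosome (chromosome 15, 100387898 to 100425072), passed in none of the 3 comparisons. Its levels were 172, 174 and 163 CPM in mutant libraries, 189.9, 163 and 176 CPM in wildtype libraries and 133, 159.5 and 171 CPM in empty vector libraries, and the groups overlapped in every comparison. The estimates were 0.19 ± 0.12 for wildtype against empty vector, 0.13 ± 0.12 for mutant against empty vector and −0.06 ± 0.12 for mutant against wildtype. The sign of the last turned on library totals without TMM factors (0.05, adjusted p 0.816). Among the 3 uptake genes, reductase and receptor thus rose with the wildtype while the endosomal transporter did not pass.

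Slc25a37, or mitoferrin-1, which brings iron across the inner mitochondrial membrane (chromosome 14, 69241848 to 69285112), had the second largest response to wildtype GATA1 of the 10 genes. It stood at 36.8, 36.0 and 37.65 CPM in mutant libraries, at 321, 242 and 347 CPM in wildtype libraries and at 22.3, 26.3 and 25.03 CPM in empty vector libraries. The groups did not overlap in any comparison. The wildtype was 12.4-fold higher than the empty vector (3.63 ± 0.15, adjusted p 5e-09), and the mutant was at 12.1% of the wildtype (−3.04 ± 0.15, adjusted p 3.11e-08). The mutant was 1.499-fold of the empty vector (0.58 ± 0.14), which did not pass at an adjusted p of 0.167; it passed in DESeq2 (0.0225), without the low-count filter (0.0109) and without empty vector replicate 3 (0.0421). Slc25a28, its broadly expressed paralog mitoferrin-2, was tested and did not pass against the empty vector with the wildtype (−0.23 ± 0.28). Within a library the count of Slc25a37 over that of Slc25a28 was 12.8, 9.80 and 10.7 with the mutant, 175, 81.3 and 208 with the wildtype, and 10.5, 10.2 and 8.84 with the empty vector. Slc25a28 held 166, 73 and 110 counts in the 3 mutant, 3 wildtype and 3 empty vector libraries, so the ratio is imprecise. It does not depend on scaling between libraries, and its wildtype values were all above the rest.

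Abcb10, an inner membrane transporter that binds and stabilizes mitoferrin-1 (chromosome 8, 123952459 to 123983122), also rose with wildtype GATA1. It had 189, 202 and 198 CPM in mutant libraries, 655, 624 and 539 CPM in wildtype libraries and 136, 138 and 146 CPM in empty vector libraries, without overlap of any 2 groups. The wildtype rose 4.33-fold (2.12 ± 0.11, adjusted p 4.43e-08) and the mutant was at 32.5% of it (−1.62 ± 0.11, adjusted p 5.08e-07). The mutant was 1.41-fold of the empty vector (0.49 ± 0.11, adjusted p 0.112). That difference passed in DESeq2 (0.00942), without the low-count filter (0.0281), without wildtype replicate 3 (0.047) or empty vector replicate 3 (0.0292).

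Abcb6, a porphyrin transporter that also carries the Langereis blood group in humans (chromosome 1, 75171717 to 75180392), followed the same order. Its values were 122, 119 and 109.96 CPM in mutant libraries, 345, 331 and 257 CPM in wildtype libraries and 83.7, 86.5 and 102.5 CPM in empty vector libraries. The lowest mutant library lay above the highest empty vector library by less than the range within either group. The wildtype rose 3.42-fold (1.77 ± 0.14, adjusted p 1.26e-06), the mutant was at 37.6% of the wildtype (−1.41 ± 0.13, adjusted p 1.05e-05), and mutant against empty vector gave 0.36 ± 0.13 (adjusted p 0.344). Over the mitochondrial genes the fold change with the wildtype was largest for the iron importer and smaller for both ABC transporters.

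Ferritin heavy chain Fth1 (chromosome 19, 9980598 to 9985098), the ferroxidase subunit, and light chain Ftl1 (chromosome 7, 45457944 to 45459884), the subunit that favours mineral formation, were the most abundant of the 10 genes. Fth1 stood at 3878, 4006 and 3823 CPM in mutant libraries, 5802, 5491 and 4642 CPM in wildtype libraries and 3575, 3646 and 3835 CPM in empty vector libraries. Ftl1 stood at 2139.9, 2113 and 1843 CPM in mutant libraries, 3420, 3167 and 2139 CPM in wildtype libraries and 1421, 1543 and 1805 CPM in empty vector libraries. Wildtype replicate 3 was the lowest wildtype library for both subunits, and for Ftl1 it lay just below the highest mutant library.

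With wildtype GATA1, Fth1 rose 1.44-fold (0.53 ± 0.11, adjusted p 0.00508) and Ftl1 1.83-fold (0.87 ± 0.17, adjusted p 0.00213). Together the 2 ferritin genes took 0.610% ± 0.018 of the counts with the mutant, 0.783% ± 0.100 with the wildtype and 0.537% ± 0.042 with the empty vector (SD, n = 3). With the mutant, neither passed against the empty vector (Fth1 0.08 ± 0.11, adjusted p 0.764; Ftl1 0.35 ± 0.17, adjusted p 0.392). Against the wildtype, the mutant fell to 73.5% for Fth1 (adjusted p 0.0135) and 69.9% for Ftl1 (adjusted p 0.0366). These 2 calls were the least stable of the 7. That of Fth1 was lost without mutant replicates 1 or 2, without wildtype replicate 1 and with mutant replicates 1 and 2 summed (adjusted p up to 0.0742). That of Ftl1 was lost under 10 of 18 alternatives (adjusted p 0.000806 to 0.161), the highest without wildtype replicate 1. It held once replicate number was a block in the 6 mutant and wildtype libraries (0.000806), a pairing that the labels do not state.

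The count of Fth1 over that of Ftl1 in the same library was 1.81, 1.90 and 2.07 with the mutant, 1.70, 1.73 and 2.17 with the wildtype and 2.52, 2.36 and 2.13 with the empty vector. All mutant libraries lay below all empty vector libraries in this ratio, and wildtype replicate 3 lay among the empty vector libraries. Ferritin has many processed copies in the mouse genome, of which 7 are annotated by name as Fth or Ftl pseudogenes in GENCODE M21. How reads that match such copies were counted is not given in the sources used here, so the levels of both subunits are uncertain.

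Slc40a1, or ferroportin, the iron exporter of the cell surface (chromosome 1, 45908068 to 45926523), was the member with the smallest response to wildtype GATA1. It had 172, 179 and 185 CPM in mutant libraries, 164, 160.1 and 152 CPM in wildtype libraries and 150.1, 151 and 143 CPM in empty vector libraries. The mutant libraries were the highest, and did not overlap either other group. The differences were small and none passed: 0.10 ± 0.10 for wildtype against empty vector (adjusted p 0.501), 0.27 ± 0.10 for mutant against empty vector (adjusted p 0.343) and 0.17 ± 0.10 for mutant against wildtype (adjusted p 0.214). On library totals without TMM factors the last was called higher (0.28, adjusted p 0.0433). Slc40a1 was the only 1 of the 10 with a positive estimate for mutant against wildtype.

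Fam132b, now named Erfe, encodes erythroferrone, the hormone by which erythroblasts lower hepcidin in the liver, and it had the largest response of the 10 genes. The gene lies on chromosome 1 from 91366430 to 91374217. The libraries held 49, 53 and 40 counts (2.77, 3.19 and 2.597 CPM) with the mutant, 1326, 1042 and 1138 counts (106, 100.3 and 99.9 CPM) with the wildtype and 21, 27 and 46 counts (1.54, 1.89 and 2.96 CPM) with the empty vector. Mutant and empty vector libraries overlapped, and the wildtype libraries were far above both. The wildtype was 47.3-fold higher than the empty vector (5.565 ± 0.20, adjusted p 2.17e-09), and the mutant was at 2.81% of the wildtype (−5.16 ± 0.20, adjusted p 1.37e-08), the lowest share of the 10 genes. Mutant against empty vector gave 0.41 ± 0.22 (adjusted p 0.447). The gene span overlaps that of Ilkap on the other strand by 357 bases, and since the libraries keep no strand, reads there cannot be told apart. Ilkap held 2313 to 3053 counts with the empty vector and rose 1.41-fold with the wildtype. Other annotated genes also overlap the spans of Slc11a2, Slc25a37, Abcb10, Abcb6 and Ftl1. Among them, Gm20388 at Abcb10 and Gm27222 and Gm27223 at Slc25a37 had no count in any library. Gm5475 at Slc11a2 had at most 3 counts in a library.

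The order of the 10 genes by level, in mean CPM per kilobase of annotated exon, also differed between groups. Ftl1, Fth1 and Tfrc were ranks 1 to 3 in all 3 groups, and the neighbours Ftl1 (1186 ± 146 per kilobase) and Fth1 (1062 ± 38.8) lay within the SD of Ftl1 of each other with the empty vector (SD, n = 3). Slc25a37 and Fam132b were ranks 9 and 10 with the mutant (6.12 and 1.01 per kilobase), ranks 7 and 8 with the wildtype (50.4 and 36.3) and ranks 9 and 10 with the empty vector (4.08 and 0.756). Slc40a1 was rank 10 with the wildtype (17.6 ± 0.673) and rank 8 in both other groups. Neighbours that did not differ beyond the larger SD of the pair were, beside Ftl1 and Fth1, Abcb6 (58.5 ± 8.88) and Slc25a37 (50.4 ± 9.03) with the wildtype and Abcb6 (17.1 ± 1.91) and Slc40a1 (16.5 ± 0.519) with the empty vector. Lengths are unions of all annotated exons, so these levels are lower than levels per transcript. The amount can differ between genes, so the order depends on the lengths used. Ftl1 ranked above Fth1 with lengths of 1340 and 3469 bases, although Fth1 had more counts than Ftl1 in every library.

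Within groups, the order of the libraries for Tfrc was set beside that for the ferritin genes and Steap3 after the values were seen. The library with the highest Tfrc had the lowest Fth1, Ftl1 and Steap3 of its group in 3 of 3 groups. At the other end the order was less regular: the library with the lowest Tfrc had the highest Fth1 and Steap3 in 2 of 3 groups and the highest Ftl1 in 1 of 3. The library with the highest Tfrc was replicate 3 of the mutant (Tfrc +0.25, Ftl1 −0.14 on the log2 scale from the group mean), replicate 3 of the wildtype (+0.27 and −0.41) and replicate 1 of the empty vector (+0.32 and −0.15). Abcb6 (−0.09, −0.26 and −0.11) and Fam132b (−0.13, −0.03 and −0.41) were also lowest of their group in these 3 libraries. The order was thus not particular to the ferritin genes and Steap3. On library totals without TMM factors, the library with the highest Tfrc had the lowest Ftl1 and Steap3 in 3 of 3 groups and the lowest Fth1 in 2 of 3. The same libraries differed from their groups over many genes. The deviation of 77 ribosomal protein genes had a median of −0.21 in mutant replicate 3, −0.34 in wildtype replicate 3 and 0.15 in empty vector replicate 1. Across 9658 genes within a library, which are not independent, Spearman's rho between deviation and exon length was 0.33, 0.46 and −0.21 in the same libraries. The part of length and library in this order was not tested.

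**Figure D3:**
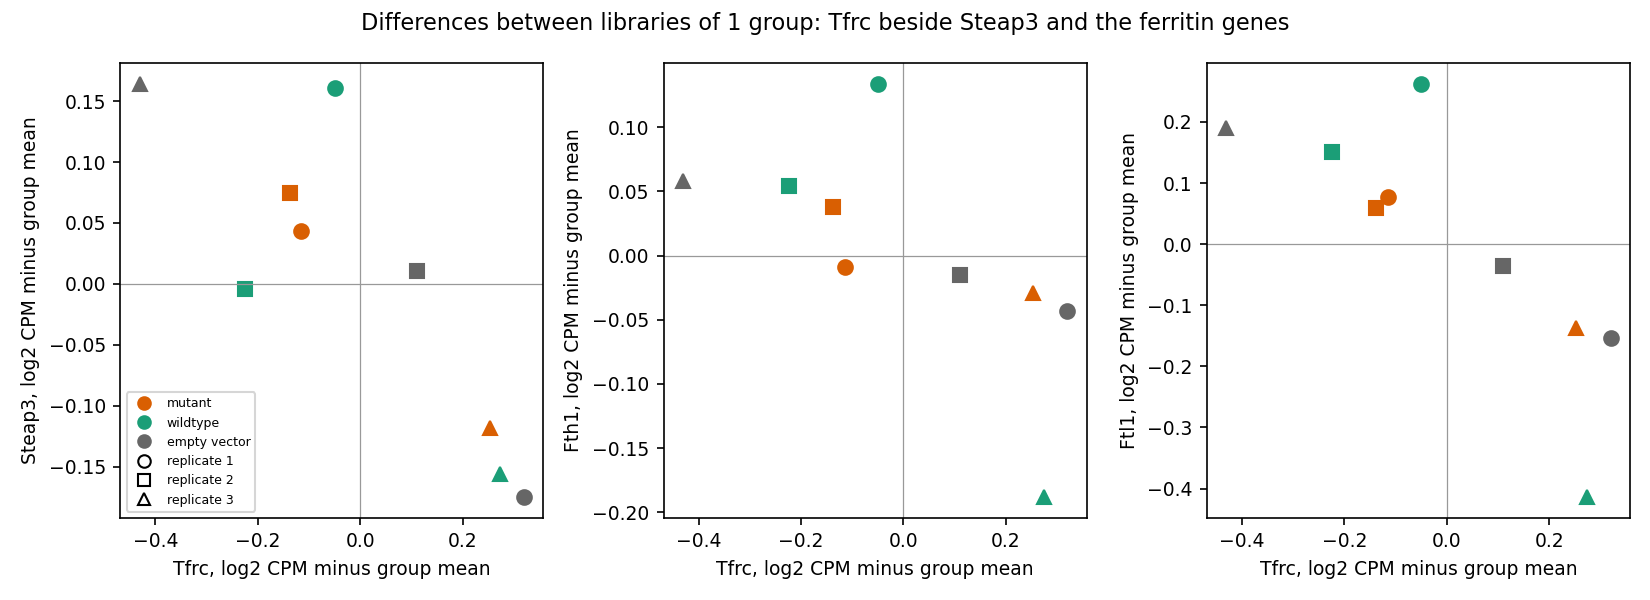
Deviation of each library from its group mean, in log2 CPM, for Tfrc on the horizontal axis and Steap3, Fth1 or Ftl1 on the vertical axis; colour gives the group and shape the replicate. The 3 libraries farthest to the right, mutant replicate 3, wildtype replicate 3 and empty vector replicate 1, all lie below 0 on the vertical axis of every panel.

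Of 79 other genes of iron and heme handling in 6 lists, 77 had a row and 55 were tested. With wildtype GATA1, 23 of the 55 rose and 5 fell, beside 11.4% and 11.9% of all genes. With the mutant, 1 rose against the empty vector and 0 fell. At an unadjusted p under 0.05, 6 were higher and 2 lower, and in DESeq2 0 were lower. The share of all genes at that unadjusted level was not counted. Against the wildtype, 22 of 55 were lower with the mutant and 6 higher, beside 12.7% and 13.2% of all genes. The 1 gene that rose with the mutant against the empty vector was Alas2, the erythroid enzyme that starts heme synthesis. It had 2.01 ± 0.19 (adjusted p 0.000271).

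Heme synthesis enzymes had the highest list median with the wildtype (1.61): 7 of 9 rose, led by Alas2 (6.46 ± 0.21), Alad (2.32 ± 0.16) and Ppox (1.49 ± 0.11), and Alas1 and Cpox did not pass. Of 9 tested genes of heme transport and breakdown, 5 rose and 1 fell (median 0.54). Those with the smallest p were Tmem14c, which moves porphyrin precursors within mitochondria (1.92 ± 0.15), Slc25a38, the mitochondrial glycine carrier that supplies heme synthesis (1.68 ± 0.16), and Blvrb, a biliverdin reductase (1.81 ± 0.19). The fall was that of Slc48a1, a heme transporter of endolysosomes (−0.39 ± 0.12). Of 23 iron-sulfur assembly genes 9 rose and the rest did not pass (median 0.38), led by Glrx5 (1.12 ± 0.14), Isca1 (0.79 ± 0.11) and Bola3 (0.77 ± 0.15).

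The list of iron sensing and chaperones was the only 1 of the 6 with a negative median in the wildtype (−0.41): 4 of 8 tested genes fell and the rest did not pass. Aco1, which as iron regulatory protein 1 binds the hairpins of ferritin and transferrin receptor RNA, stood at 310 ± 10.5 CPM in mutant libraries, 167 ± 4.46 CPM in wildtype libraries and 239 ± 26.3 CPM in empty vector libraries (SD, n = 3). It fell by 0.52 on the log2 scale with the wildtype (SE 0.11, adjusted p 0.0041) and was higher with the mutant than with the wildtype (0.89 ± 0.11, adjusted p 9.09e-05). The iron chaperone Pcbp1 had −0.46 ± 0.11 and the hypoxia factor Hif1a −0.64 ± 0.17 with the wildtype. The call of Pcbp1 was lost without wildtype replicate 1 (adjusted p 0.0618), and that of Hif1a without any 1 of wildtype replicates 1 and 2 and empty vector replicate 2 (0.088, 0.0648 and 0.0726). Ireb2, the other iron regulatory protein, did not pass (−0.32 ± 0.22).

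Among other iron transporters, 2 of 5 tested genes rose with the wildtype, the metal importer Slc39a8 (0.67 ± 0.11, adjusted p 0.00101) and the endolysosomal channel Mcoln1 (0.46 ± 0.16), whose adjusted p of 0.05 lay at the threshold and whose call was lost under 14 of 17 alternatives (adjusted p up to 0.128). Snx3, which sorts the transferrin receptor back to the cell surface, did not pass in edgeR (0.25 ± 0.10, adjusted p 0.0915) and passed in DESeq2 (0.28, adjusted p 0.0241). Of 9 genes of systemic iron control only Tfr2, the second transferrin receptor, was tested, at 198 ± 14.3 CPM in mutant libraries, 177 ± 9.54 with the wildtype and 157 ± 25.3 with the empty vector, and it did not pass. Hamp, which encodes hepcidin, the target of erythroferrone, had 1 count over the 9 libraries, in a wildtype library. Of the transport genes, 9 had no count in any library, among them the ferrireductases Steap1, Steap2 and Steap4, which leaves Steap3 as the member of that family with counts here; a count of 0 allows up to 0.289 CPM in wildtype replicate 2, the library with the smallest scaled size.

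**Figure D4:**
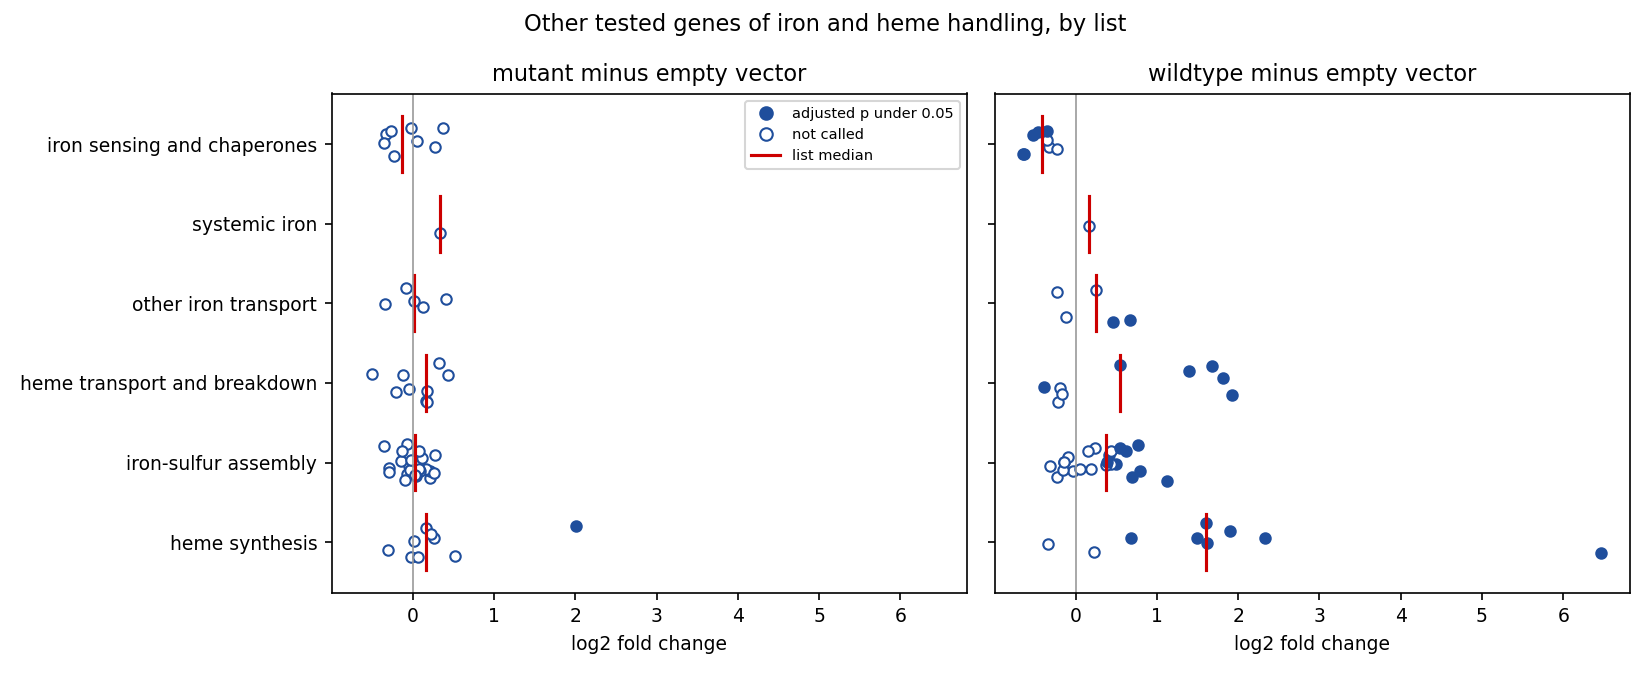
Log2 fold change of the 55 tested genes of iron and heme handling by list, for mutant minus empty vector on the left and wildtype minus empty vector on the right; filled points had an adjusted p under 0.05 and red lines mark list medians. The filled point on the left is Alas2 (2.01), and on the right the medians run from −0.41 for iron sensing and chaperones to 1.61 for heme synthesis.

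The nearest tested protein-coding genes on both sides of each member were also examined, 20 in all, a choice made after the members' values were known. They lay up to 1500 kilobases away (Kctd9, from Slc25a37), so not all are close neighbours. With the wildtype 6 of the 20 rose and 2 fell, beside 11.4% and 11.9% of all genes. Among those that fell, Slc39a10 lay 881 kilobases from Slc40a1. The genes that flank Abcb6 at 0.088 and 0.468 kilobases, Zfand2b and the autophagy gene Atg9a, both rose (0.995 ± 0.19 and 1.37 ± 0.16), by less than Abcb6 itself. At Abcb10, Nup133 (3.19 kilobases away, 0.01 ± 0.12) and Taf5l (13.2 kilobases away, −0.02 ± 0.12) did not pass. At Ftl1, Gys1, a glycogen synthase 1.325 kilobases away, fell by 0.88 on the log2 scale (SE 0.16). Rab3il1, 16.6 kilobases from Fth1, rose 8.85-fold, a larger change than that of Fth1.

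Genes whose log2 CPM followed a member most closely over the 9 libraries were listed by Pearson's r, as a description, since the 9 points share 3 group means. For Fam132b these were Kifc2, Grina, Plekho2, Ccne1 and Epb42 (r 0.996 to 0.997). For Slc25a37 they were Fam214b, Atp1b2, Slfn14, Tmem184a and Fam210b (0.993 to 0.996). For Slc40a1 they were Glrx, Jun, Zfp212, Prg3 and Galnt10, and the r of 0.966 for Glrx was followed by values of 0.856 to 0.886.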

How the data were processed

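RNA from 9 libraries of total RNA (Smart-seq2, a full-length method that keeps no strand, with Nextera-based indexing, per the labels' protocols) was available as 1 deposited table of raw gene counts that the authors made. STAR and the builds GRCm38.p4 and hg19 are named in the submitters' processing notes. Which version was run, how reads were counted, with which annotation, and how reads matching several genes were handled is not given in the sources used here. Groups and replicate numbers come from the sample titles, and the series calls the libraries biological replicates; nothing says that they came from separate cultures, so p-values cover only the spread seen here.

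The human GATA1 row was left out of library sizes and tests. Counts were filtered with filterByExpr, scaled by TMM and fitted in edgeR 4.0.16 (R 4.3.3, limma 3.58.1) with glmQLFit and 1 mean per group in all 9 libraries (6 residual degrees of freedom). 9978 genes were tested with glmQLFTest and p-values were adjusted by Benjamini-Hochberg over them separately in the 3 comparisons, with 0.05 as the threshold for a call. The SE, which is approximate, was taken from the F-statistic as the size of the log2 fold change divided by its root. Log2 CPM for deviations and correlations over all genes used a prior count of 2. A count of 0 allows 3 counts, for counting error only. Coordinates and exon lengths are from GENCODE M21 (GRCm38), with Fam132b matched to Erfe through RefSeq synonyms, and promoter windows are from RefSeq. The tests were checked on simulated counts. These were drawn independently for each gene and library, without shifts shared by many genes of a library, so the check does not cover such shifts.

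The members, lists and rules were chosen with earlier results of these data known. Named genes were the 10 members, the 3 tested genes of each list with the smallest p in wildtype against empty vector, and the 5 most correlated with Fam132b, Slc25a37 and Slc40a1; other named genes were chosen after their values were seen. Alternatives were RLE factors, library totals, no low-count filter, 5 CPM in 3 libraries, DESeq2 1.42.0, only the 6 libraries compared, a replicate block, each library left out, and mutant replicates 1 and 2 summed. Same-numbered mutant and wildtype libraries deviated together from their group means (r 0.171, 0.286 and 0.533 for numbers 1, 2 and 3), and those numbers were taken as pairs. Mutant replicate 1 with wildtype replicate 2 (r 0.24) and mutant replicate 2 with wildtype replicate 1 (0.223) gave similar values. Numbers 1 and 2 are thus not set apart as pairs, and the labels state no pairing. Same-numbered empty vector libraries did not deviate together with the others (r −0.202 to −0.435 with the mutant and −0.222 to −0.373 with the wildtype). The block in the 6 mutant and wildtype libraries was added after seeing this.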

Additional observations from a re-analysis of the deposited data

How the results depend on the processing

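Over the 10 genes, 491 of 520 combinations of gene, comparison and alternative kept the direction and the side of the threshold. The 8 genes higher with the wildtype than with the empty vector stayed at 8 under every alternative run, and the 14 lost calls were those of Fth1 and Ftl1 for mutant against wildtype, whose alternatives are in the report. The cause was not tested. For mutant against empty vector, the 0 members higher became 2 without the low-count filter and in DESeq2, and 0 to 3 with 1 library left out (1 without wildtype replicate 3, 3 without empty vector replicate 3). Members higher with the mutant than with the wildtype became 1 on library totals, and members lower numbered 5 to 8 with 1 library left out. The sign turned for Slc11a2 on library totals (0.0452 for mutant against wildtype).

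Of the 55 list genes, the 5 lower with the wildtype than with the empty vector became 3 with RLE factors, with only the 6 libraries compared, with the replicate block in 9 libraries and with mutant replicates 1 and 2 summed, and 1 to 5 with 1 library left out (1 without wildtype replicate 1, 2 without empty vector replicate 2). The 1 higher with the mutant than with the empty vector became 2 without the low-count filter and 1 to 3 with 1 library left out, and the 0 lower became 0 to 2; both highest counts were without empty vector replicate 3. The 6 higher with the mutant than with the wildtype became 2 to 7 (2 without mutant replicates 1 or 2, 3 without wildtype replicate 1). The block in 9 libraries and the block in the 6 mutant and wildtype libraries changed no other call of a member than those of Steap3 and Ftl1. Signs near 0 also turned for mutant against empty vector: Pcbp1 (lowest −0.0851; 0.00242, 0.000988 and 0.0319 without mutant replicate 3, wildtype replicate 1 and empty vector replicate 2), Mcoln1 (−0.00167, highest 0.245) and Bola3 (0.0403, lowest −0.244) without empty vector replicate 1, and Snx3 (−0.00678 and −0.0306, highest 0.0386, without mutant replicate 3 and empty vector replicate 3).

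Over all genes, mutant against empty vector had 21 higher and 6 lower, against 119 and 296 without the low-count filter, 63 and 39 in DESeq2, 12 and 2 with the replicate block in 9 libraries, 9 and 2 with mutant replicates 1 and 2 summed, and 5 to 227 and 2 to 610 with 1 library left out (both highest without empty vector replicate 3). On library totals without TMM factors 3 were lower. Mutant against wildtype had 1313 and 1267, against 779 and 772 with those replicates summed and 694 to 1581 and 778 to 1577 with 1 library left out; wildtype against empty vector had 1137 and 1186, against 732 to 1614 and 655 to 1641. With 21 to 53 counts per library, Fam132b in the mutant and the empty vector was the member most limited by depth.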
